A study of Mus musculus with 10 samples.

Results

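The control clone of an inducible system shows what the inducing drug and a reporter transgene do to leukemic cells without the microRNA under study. MLL-AF9-ieGFP is 1 colony-derived mouse clone made from bone marrow enriched for hematopoietic stem and progenitor cells of wild-type C57BL/6 mice. The cells carry a retrovirus for MLL-AF9, a leukemia fusion oncogene, a tetR-KRAB repressor (pBabe-tetR-KRAB-Hygro) and a lentiviral pCW vector that expresses eGFP when doxycycline (DOX) is given. All libraries of the series share the oncogene and the repressor. The members are the 4 libraries of this clone, of 10 in the series: 1 with DOX and 1 without at 48 h, and 1 with DOX and 1 without at 72 h. The other 6 libraries come from 3 clones of MLL-AF9-i139, which express miR-139 instead of eGFP, each with and without DOX. Their DOX libraries are from 48 h for clones 1 and 2 and from 72 h for clone 3, and the labels give no time for their untreated libraries. The labels state the DOX dose, 5 µg/mL, in the sentence on miR-139 and place the eGFP cells beside it for comparison. DOX and eGFP came together in every treated library, so their effects cannot be told apart, and eGFP itself was not analysed here. The libraries of a group are time points of 1 clone. P-values rest on the spread between such libraries, pooled in large part over genes, and do not cover the spread between clones.

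Doxycycline is a tetracycline antibiotic. Tetracyclines bind the bacterial ribosome, and they also reach the related ribosome of mitochondria, which translates the few proteins that the mitochondrial genome encodes. Those proteins are subunits of the respiratory chain and of ATP synthase, whose other subunits are encoded in the nucleus. ATF4 is the transcription factor of the integrated stress response, known for raising genes of amino acid supply. NRF2 is the transcription factor that raises antioxidant enzymes and ferritin. In myeloid progenitors such as these, granule proteins like myeloperoxidase mark the granulocyte and monocyte lineage.

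The 4 libraries held 35133308 to 45858788 counts. Markers of the labelled cell type were high: the summed level of 10 myeloid identity markers was 1651 to 2054 counts per 1000000 (CPM), lowest in the untreated 48 h and highest in the DOX 72 h library. Itgam, which encodes the integrin CD11b, was listed with 1 count over the 4 libraries. The lists for T and NK, B, erythroid, megakaryocyte, mast and basophil, and macrophage and dendritic cells each summed to between 1.26 and 11.9 CPM. The hemoglobin genes Hba-a1, Hba-a2, Hbb-bs and Hbb-bt and the complement genes C1qa, C1qb and C1qc were listed at 0 in all 4 libraries. Genes that every cell uses, such as Cox4i1 of cytochrome c oxidase, Mrpl2 of the mitochondrial ribosome and Map1lc3b of autophagy, were listed at 0 in all 4 as well, so a 0 or near-0 in this table does not show that a gene or a cell type was absent. The untreated 72 h library held 7559 counts in genes annotated as rRNA, against 167 in the untreated 48 h library, 670 in the DOX 48 h library and 176 in the DOX 72 h library, and so stood apart. Its mitochondrial rRNA count was 2580, against 1118, 1306 and 695. Ribosomal RNA was depleted before sequencing, and the part of this difference in the results was not tested.

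The response to DOX was small. Of 17757 genes with at least 10 counts over the 4 libraries, 51 passed an adjusted p of 0.05 (edgeR quasi-likelihood test with time as a block, Benjamini-Hochberg), which is 0.287% of those tested. Of these, 39 rose (0.22%) and 12 fell (0.0676%). All 39 rises went the same way at 48 h and 72 h, as did 9 of the 12 falls. In 36 of the 51, both DOX libraries lay outside the range of both untreated libraries, against 13.7% of all genes higher and 12.8% lower. The 51 were picked by a test on the same 2 pairs, which favours genes whose pairs agree, so neither count backs the calls. The change was at least 2-fold in 8 of the 51. The edgeR count rests on pairing the libraries by time with 1 residual degree of freedom. To this the fit added 24.9 prior degrees of freedom, taken from the spread over all genes tested. Without the time block no gene passed and 329 had an unadjusted p under 0.05. With all 10 libraries in 1 fit with the pair as block no gene passed and 476 had an unadjusted p under 0.05. DESeq2 with the block called 9 and limma-voom called 85, which held all 51. Fits with 1 library left out had no time block and a lone library in 1 group. Their calls therefore cannot show how far the 51 rest on that library. Of the 51, 2 changed sign without the DOX 48 h library and 3 without the DOX 72 h library. Without the untreated 48 h library 2 did, and without the untreated 72 h library 3 did.

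Across the 8643 genes with an average log2 CPM of at least 3, the SD of the log2 change with DOX was 0.114 at 48 h and 0.151 at 72 h. Time in culture moved these genes more: the SD of the 72 h minus 48 h difference was 0.231 without DOX and 0.177 with DOX. In the 3 MLL-AF9-i139 clones the SD of the change with DOX was 0.493, 0.504 and 0.226. The 48 h and 72 h changes of MLL-AF9-ieGFP were weakly related across these genes (Pearson r 0.0206, Spearman rho 0.141). These are descriptions over genes, which are not independent replicates, and each time holds 1 pair of libraries. The plot of the change at 48 h against that at 72 h shows most genes in 1 round cloud near 0 and the called genes around it.

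**Figure D1:**
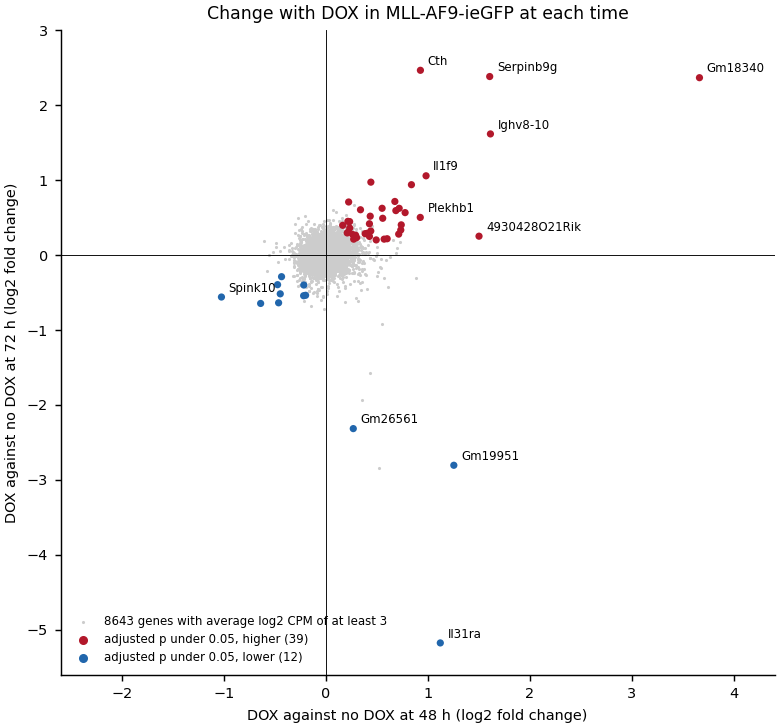
Log2 fold change with DOX in MLL-AF9-ieGFP at 48 h (x axis) and 72 h (y axis), 1 point per gene. Grey points are the 8643 genes with an average log2 CPM of at least 3, red the 39 genes that rose and blue the 12 that fell at an edgeR adjusted p under 0.05. Gm18340, Serpinb9g, Cth and Ighv8-10 stand apart at the upper right, and Il31ra, Gm19951 and Gm26561 are above 0 at 48 h and below 0 at 72 h.

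Among the lists, the mitochondrially encoded mRNAs held the most rises. Of the 13 mitochondrially encoded mRNAs, 7 rose, against 0.22% of all genes, none fell, and the list median was 0.34 on the log2 scale (0.43 at 48 h and 0.20 at 72 h) beside 0.00 for all genes tested. Of the 7, 6 encode subunits of complex I, and the other, mt-Cytb, encodes the cytochrome b of complex III. The level of mt-Cytb (chromosome M) was 1249 TMM-scaled CPM without and 2140 with DOX at 48 h, and 1406 without and 2082 with DOX at 72 h. Both DOX libraries lay above both untreated ones. The fitted log2 fold change was 0.67 ± 0.05 (SE; n = 2 libraries a group; edgeR adjusted p = 1.43e-08), a ratio of 1.59.

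Of the 6 complex I mRNAs, 5 had a smaller fitted change than mt-Cytb and mt-Nd3 a slightly larger one. The level of mt-Nd2 went from 383 to 638 scaled CPM at 48 h and from 510 to 643 at 72 h (0.53 ± 0.06, edgeR adjusted p = 3.02e-05). For mt-Nd1 it went from 1165 to 1732 and from 1646 to 1907 (0.39 ± 0.06, edgeR adjusted p = 0.000906). The untreated libraries of mt-Nd1 differed by almost as much as the DOX and untreated libraries of 48 h, but the groups did not overlap. The mRNAs of mt-Nd4, mt-Nd5 and mt-Nd6, the last of which is read from the other strand of the genome, rose by 0.34 to 0.35 with SEs of 0.05 to 0.06, and each was higher at both times. Their levels at 48 h without and with DOX were 425 and 562 for mt-Nd4, 815 and 1096 for mt-Nd5, and 151 and 212 for mt-Nd6. The less abundant mt-Nd3 rose from 7.24 to 11.6 scaled CPM at 48 h and from 6.53 to 10.7 at 72 h (0.70 ± 0.11, edgeR adjusted p = 0.00124).

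The most abundant mitochondrial mRNA did not follow. The level of mt-Co1, the catalytic subunit of cytochrome c oxidase, was 4563 scaled CPM without and 4262 with DOX at 48 h, and 4624 without and 4230 with DOX at 72 h. The DOX libraries lay below the untreated ones at both times, by −0.11 ± 0.05 on the log2 scale (edgeR adjusted p = 0.588). The share of all counts on mitochondrial mRNAs other than mt-Co1 was 0.428% and 0.513% without DOX at 48 h and 72 h, and 0.653% and 0.645% with DOX. The values of mt-Nd4l (0.33 ± 0.20), mt-Co2 (0.22 ± 0.09), mt-Co3 (−0.07 ± 0.11), mt-Atp6 (−0.05 ± 0.14) and mt-Atp8 (−0.54 ± 0.58) did not pass the test. The counts of mt-Co2, mt-Co3, mt-Atp6 and mt-Nd4l were 689, 545, 319 and 96 in the untreated 48 h library, against 211856 for mt-Co1. Annotated pseudogenes on chromosome 1 between 24611535 and 24616197 (GRCm38) had like counts: Gm28661 370, Gm10925 334 and Gm28437 309 in the same library. How the counting split reads between such copies was not tested, and these 4 mRNAs, with mt-Atp8, are uncertain. The same limit holds for mt-Nd3, which is counted among the rises above. It lies between mt-Co3 and mt-Nd4l on chromosome M and had 336 counts in that library. The pseudogene Gm28438, in the same stretch of chromosome 1, had 20.

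**Figure D2:**
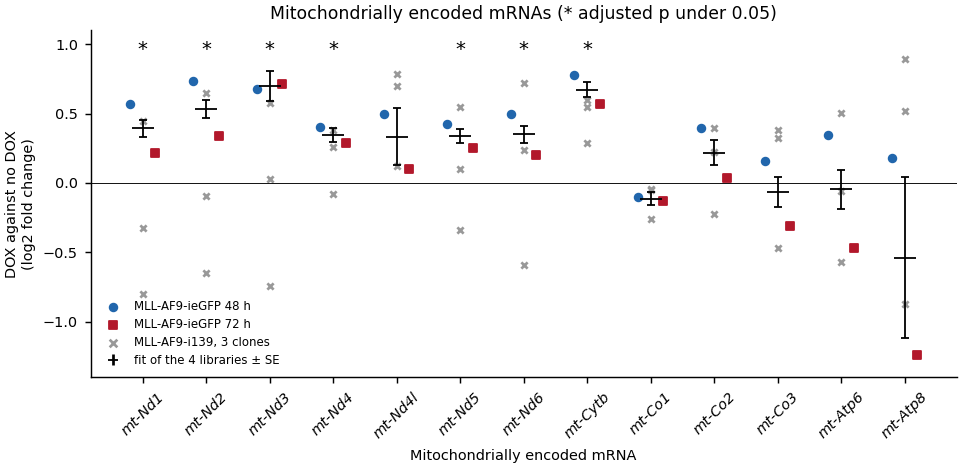
Log2 fold change with DOX (y axis) of the 13 mitochondrially encoded mRNAs (x axis). Blue circles and red squares are MLL-AF9-ieGFP at 48 h and 72 h, black bars the fit of the 4 libraries ± SE, grey crosses the 3 MLL-AF9-i139 clones; asterisks mark an edgeR adjusted p under 0.05 in MLL-AF9-ieGFP. The mt-Nd mRNAs and mt-Cytb are above 0 at both times, and mt-Co1 is slightly below 0 at both.

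Of the mitochondrial tRNA genes, mt-Tw, the tRNA for tryptophan that lies next to mt-Nd2, rose from 108 counts to 167 at 48 h and from 85 to 177 at 72 h (log2 fold change 0.90 ± 0.17, edgeR adjusted p = 0.0101). Its groups did not overlap. Of 32 tested genes of chromosome M, 8 were called: 7 mRNAs and mt-Tw. The annotated mt-Tw (4950-5016) overlaps the end of mt-Nd2 (3914-4951), and whether its reads belong to the mt-Nd2 transcript was not tested. The mitochondrial rRNAs moved with the library that stood apart. The count of mt-Rnr1 was 203 without and 250 with DOX at 48 h, and 1103 without and 164 with DOX at 72 h, while mt-Rnr2 had 915, 1056, 1477 and 531. Neither passed the test, and their log2 changes at 72 h were −2.84 and −1.58.

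The nuclear partners of these genes stayed close to 0. None of 44 large-subunit and 32 small-subunit mitochondrial ribosomal protein genes passed, with medians of −0.03 and −0.02. With 0.287% of all genes called, no call in lists of this size, here and below, is near the share of all genes. None of 35 nuclear complex I genes and none of 38 genes of complexes II to V passed, with medians of −0.00 for each. None of 29 mitochondrial translation genes (0.01), 28 genes of mitochondrial DNA and RNA handling (−0.04), 20 TCA cycle genes (0.01) and 16 mitochondrial chaperone and protease genes (0.00) passed. The mitochondrial chaperonin Hspd1 was at −0.03 ± 0.05, the protease Lonp1 at −0.00 ± 0.05, the elongation factor Tufm at −0.03 ± 0.06 and the transcription factor Tfam at −0.03 ± 0.07.

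Of 45 tested ATF4 integrated stress response genes, 3 rose (Slc7a11, Cth and Stc2) against 0.22% of all genes, none fell, 16 were higher at an unadjusted p under 0.05 against 4.57% of all genes, 29 were higher at both times against 27.1% of all genes, and the median was 0.12 beside 0.00 for all genes tested. Slc7a11 encodes the cystine importer of the plasma membrane. Its level went from 147 to 246 scaled CPM at 48 h and from 145 to 192 at 72 h (0.57 ± 0.06, edgeR adjusted p = 7.95e-06). The untreated libraries were nearly equal, and both DOX libraries lay above them. Cth encodes cystathionine gamma-lyase, which makes cysteine from cystathionine. It was low, with 21 counts without and 36 with DOX at 48 h, and 26 without and 163 with DOX at 72 h. The fitted change was 2.03 ± 0.30 (edgeR adjusted p = 0.000465), with a ratio of 1.90 at 48 h and of 5.52 at 72 h, so most of it came from the DOX 72 h library.

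Stc2, a secreted glycoprotein of the stress response, had 45.8 scaled CPM without and 53.8 with DOX at 48 h, and 63.5 without and 86.5 with DOX at 72 h (0.34 ± 0.07, edgeR adjusted p = 0.0106). The untreated 72 h library lay above the DOX 48 h library, so the groups overlapped. Pck2, the mitochondrial phosphoenolpyruvate carboxykinase, is not on the list and was named outside the rule for named genes. It went from 17.9 to 20.9 scaled CPM at 48 h and from 23.8 to 38.9 at 72 h (0.48 ± 0.09, edgeR adjusted p = 0.00958). Cth, Stc2 and Pck2 each had the larger ratio at 72 h, but with 1 pair of libraries a time the difference between the times was not tested.

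Other members of the list were higher at both times without passing the test. The glutathione-degrading enzyme Chac1 had 2.58, 3.55, 4.46 and 7.83 scaled CPM in the order untreated 48 h, DOX 48 h, untreated 72 h and DOX 72 h (0.67 ± 0.15, edgeR adjusted p = 0.0621). In the same order the pseudokinase Trib3 had 7.32, 8.43, 9.95 and 14.5 (0.38 ± 0.11, edgeR adjusted p = 0.246), and the asparagine synthetase Asns had 75.9, 81.9, 105 and 135 (0.24 ± 0.06, edgeR adjusted p = 0.141). The mRNA of Atf4 itself was at 0.05 ± 0.05 and that of Ddit3, a partner factor linked to cell death, at 0.12 ± 0.10. Within a time, the list median was 0.07 at 48 h and 0.12 at 72 h. Without the DOX 72 h library it was −0.04. That fit had no time block, so it set DOX at 48 h against the untreated libraries of both times. Of the endoplasmic reticulum unfolded protein response, 0 of 24 genes passed the test, against 0.287% of all genes, and the median was 0.05.

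The promoters of several of these genes hold the core of the amino acid response element that ATF4 binds with its partners. In RefSeq windows from 250 bases before to 50 after the start site (GRCm38.p6), TGATGNAA on either strand was found in 4.51% of 27025 genes and in 12 of the 37 list members that had a window (32.4%), and the list was drawn up from known targets. Of the genes that rose, 21 of 39 had a window and 2 held the core (9.52%), Slc7a11 and Pck2. No window of Cth was given and that of Stc2 had no match. The windows are shown for the genes described above, as the reference genome gives them 5′ to 3′ on the strand of the gene, with the core or its reverse complement in capitals. A match is a description of letters, and binding was not measured.
Slc7a11, chr3:50443661-50443690, minus strand: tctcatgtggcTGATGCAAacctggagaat
Slc7a11, chr3:50443642-50443671, minus strand: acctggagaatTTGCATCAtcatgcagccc
Pck2, chr14:55540152-55540181, plus strand: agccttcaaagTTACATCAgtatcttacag
Chac1, chr2:119351038-119351067, plus strand: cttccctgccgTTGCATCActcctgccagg
Asns, chr6:7693214-7693243, minus strand: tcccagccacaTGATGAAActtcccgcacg
Trib3, chr2:152344028-152344057, minus strand: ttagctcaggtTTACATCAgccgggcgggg
The Slc7a11 window held 2 copies in opposite orientations.

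Of 22 tested NRF2 genes, 4 rose (Nqo1, Gclm, Fth1 and Cat) against 0.22% of all genes, none fell, 17 were higher at both times against 27.1%, and in 10 the groups did not overlap with DOX higher, against 13.7% of all genes. The median was 0.14, with 0.12 at each time. Nqo1, a quinone reductase that is a standard readout of NRF2, went from 18.1 to 26.5 scaled CPM at 48 h and from 13.9 to 21.5 at 72 h (0.59 ± 0.08, edgeR adjusted p = 0.000303). Both DOX libraries were above both untreated ones. Gclm, the regulatory subunit of the enzyme that starts glutathione synthesis, went from 37.7 to 57.2 and from 44.1 to 51.3 (0.41 ± 0.08, edgeR adjusted p = 0.00668), and 58.7% of its annotated body lies within other genes.

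The ferritin heavy chain Fth1, which stores iron, went from 370 to 453 scaled CPM at 48 h and from 312 to 374 at 72 h (0.28 ± 0.05, edgeR adjusted p = 0.00734). The light chain Ftl1 went from 905 to 1001 and from 667 to 822 and did not pass (0.22 ± 0.05, edgeR adjusted p = 0.0648). The peroxide-degrading Cat went from 54.1 to 63.7 and from 41.7 to 53.6 (0.29 ± 0.07, edgeR adjusted p = 0.0438), a rise smaller than the fall from 48 h to 72 h. Hmox1, which degrades heme, went from 3.40 to 5.61 and from 5.38 to 6.66 and did not pass (0.50 ± 0.15, edgeR adjusted p = 0.241). The transferrin receptor Tfrc, of the metal list, went from 589 to 560 and from 539 to 421 (−0.21 ± 0.06, edgeR adjusted p = 0.175).

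The core that NRF2 binds, TGACNNNGC on either strand, is common: it was found in 14% of 27025 genes with a RefSeq window and in 8 of the 18 NRF2 list members that had one (44.4%). Of the 4 members that rose, the Gclm window held it and those of Nqo1, Fth1 and Cat did not. Of the 21 genes that rose and had a window, 3 held it (14.3%: Gclm, Stc2 and Vat1), a share near that of all genes. It is shown with the match in capitals.
Gclm, chr3:122245413-122245442, plus strand: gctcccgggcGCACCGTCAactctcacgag

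**Figure D3:**
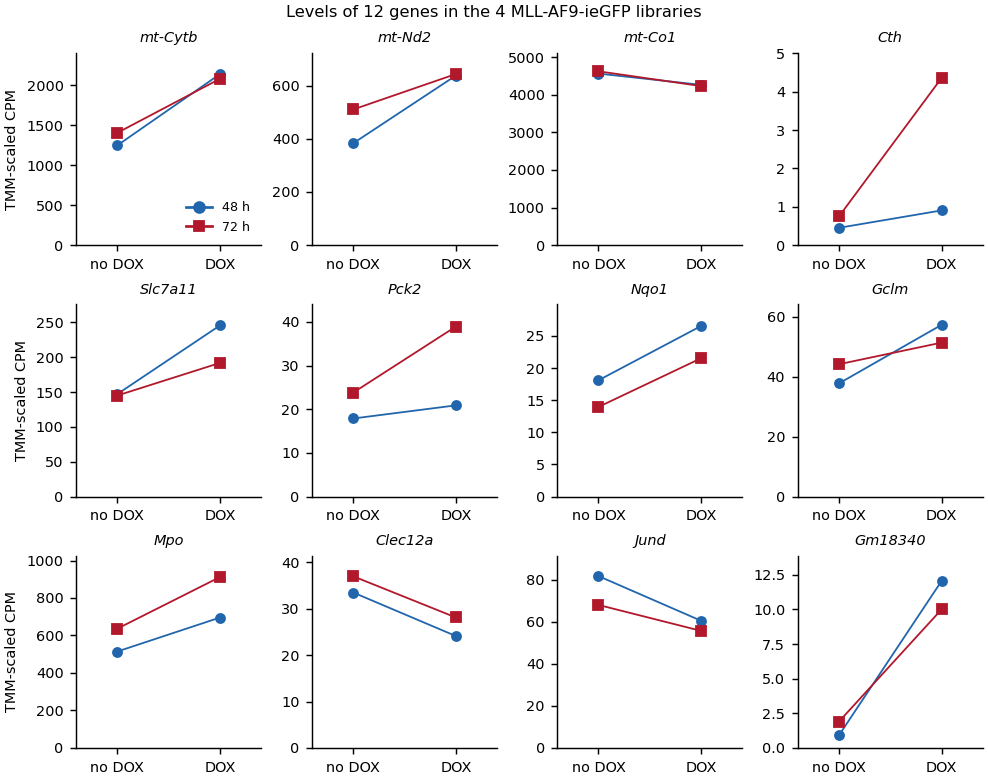
TMM-scaled CPM (y axes, each from 0) of 12 genes in the 4 MLL-AF9-ieGFP libraries without and with DOX. Blue circles are 48 h, red squares 72 h, and a line joins the libraries of 1 time; all but mt-Co1 are called genes. DOX was above no DOX at both times for mt-Cytb, mt-Nd2, Cth, Slc7a11, Pck2, Nqo1, Gclm, Mpo and Gm18340, and below at both for Clec12a and Jund.

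Of 25 tested granule and myeloid maturation genes, 3 rose against 0.22% of all genes and none fell against 0.0676%, with a median of 0.09 (0.01 at 48 h and 0.16 at 72 h). Mpo, the myeloperoxidase of primary granules, went from 514 to 696 scaled CPM at 48 h and from 636 to 912 at 72 h (0.48 ± 0.05, edgeR adjusted p = 4.74e-06). Of the annotated Mpo gene body, 49.5% lies within other annotated genes. The elastase Elane went from 1069 to 1198 and from 1480 to 1949 (0.28 ± 0.05, edgeR adjusted p = 0.0106), and the neutrophil granule protein Ngp from 63.4 to 78.1 and from 103 to 121 (0.27 ± 0.06, edgeR adjusted p = 0.0438). For Elane and Ngp the untreated 72 h library lay above the DOX 48 h library, so their rise shows only within a time. Without the DOX 72 h library the list median was −0.07, in a fit that had no time block. The cathepsin Ctsg was at 0.20 ± 0.06 and did not pass (edgeR adjusted p = 0.193). In bulk RNA, more cells of a type and more RNA per cell cannot be told apart.

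Of the 12 genes that fell, Clec12a, an inhibitory C-type lectin of myeloid cells, went from 33.5 to 24.1 scaled CPM at 48 h and from 37.0 to 28.1 at 72 h (−0.43 ± 0.07, edgeR adjusted p = 0.00277). Clec5a, an activating lectin, went from 12 to 8.76 and from 11.7 to 8.18 (−0.48 ± 0.11, edgeR adjusted p = 0.0398). The tetraspanin Cd53 went from 85.4 to 73.5 and from 103 to 70.4 (−0.38 ± 0.07, edgeR adjusted p = 0.00502). In all of these the groups did not overlap.

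Jund, a subunit of the AP-1 factor, went from 81.8 to 60.5 scaled CPM at 48 h and from 68.0 to 55.7 at 72 h (−0.36 ± 0.06, edgeR adjusted p = 0.0041). It was the single member of 21 tested immediate early and AP-1 genes to pass, and 55.1% of its annotated body lies within other genes. Its relatives Jun (−0.30 ± 0.09) and Fosl2 (−0.44 ± 0.14) were lower at both times without passing, and the phosphatase Dusp6 was higher at both (0.44 ± 0.10, edgeR adjusted p = 0.0729). The small GTPase Rhob fell from 96.0 to 82.6 and from 87.2 to 66.1 (−0.31 ± 0.06). The protease inhibitor Serpinb2 fell from 7.47 to 4.78 and from 8.31 to 5.29 (−0.65 ± 0.13), and 26.9% of its body lies within other genes. The noncoding Gt(ROSA)26Sor fell from 16.6 to 12 and from 14.7 to 9.41 (−0.54 ± 0.10), and Arhgef38, an exchange factor, from 32.7 to 28.5 and from 46.2 to 31.8 (−0.37 ± 0.08). Spink10 went from 6.96 to 3.40 and from 1.96 to 1.31 (−0.92 ± 0.18), and its untreated 72 h library lay below its DOX 48 h library. To reach 12 falls, the rule added Rgs18, a brake on G-protein signaling (−0.51 ± 0.14), AC161456.1 (−0.71 ± 0.22) and Pde6b, a phosphodiesterase subunit (−0.51 ± 0.16), none of which passed the test.

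Beyond these lists, Il1f9, an interleukin-36 cytokine, went from 6.91 to 13.7 scaled CPM at 48 h and from 2.65 to 5.56 at 72 h (1.01 ± 0.13, edgeR adjusted p = 4.35e-05), a ratio of 1.98 and of 2.08. Its groups overlapped, since its level at 72 h was lower in both. Slco3a1, an organic anion transporter, went from 24.7 to 33.5 and from 14.8 to 29.1 (0.68 ± 0.09), and Plekhb1 from 8.81 to 16.8 and from 13.1 to 18.6 (0.71 ± 0.10). P2rx3, an ATP-gated channel (0.67 ± 0.13), the pseudogene Gsdmcl-ps (0.64 ± 0.12) and the phosphatase inhibitor Ppp1r14c (0.54 ± 0.11) also rose. Ccnd2, a cyclin of the early cell cycle, went from 86.3 to 100 and from 103 to 140 (0.33 ± 0.06). The remaining rises were Ssbp2 and, outside the rule for named genes, Serpinb9g, Angptl4, Pmp22, Tspoap1, B4galt6, Utrn, Vat1, Malat1, Creg1 and 4930428O21Rik, with log2 fold changes of 0.24 to 2.11. Angptl4, a secreted inhibitor of lipoprotein lipase, had 21.7, 29.2, 23.9 and 32.0 scaled CPM in the order untreated 48 h, DOX 48 h, untreated 72 h and DOX 72 h, and Utrn had 153, 183, 153 and 185. In both, the groups did not overlap. Serpinb9g, a protease inhibitor, was low, with 13, 38, 5 and 36 counts, and 4930428O21Rik had 95 counts without and 234 with DOX at 48 h, and 127 and 163 at 72 h.

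No gene of cholesterol synthesis passed, against 0.287% of all genes, so no call in this and the next lists is near the share of all genes. Of 22 tested, 6 were lower at an unadjusted p under 0.05 against 3.23% of all genes, 15 were lower at both times, against 26.1% of all genes, and in 9 the groups did not overlap with DOX lower, against 12.8%. The median was −0.10. Insig1, which holds back the factors that raise sterol synthesis, was at −0.36 ± 0.11 (edgeR adjusted p = 0.293). Of 25 ribosome biogenesis genes none passed and 18 were lower at both times, all within −0.11 and 0.01, with a median of −0.06. Of 15 heat shock genes none passed and 9 were lower at both times (median −0.04). Of 15 hypoxia targets outside glycolysis none passed and 9 were higher at both times (0.08), and of 22 glycolysis genes none passed and 11 were (0.05).

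The lists of cell number and death showed no called gene: 20 p53 targets (median −0.04), 13 BCL2 family genes (−0.04), 34 DNA replication genes (−0.02) and 29 mitosis genes (−0.01). With 0.287% of all genes called, no call in lists of this size, here and below, is near the share of all genes. The cyclin-dependent kinase inhibitor Cdkn1a had a log2 fold change of 0.01 ± 0.07 and Myc of −0.01 ± 0.05. Bcl2, the survival factor, was at 0.34 ± 0.08 (edgeR adjusted p = 0.0606). None of 15 MLL-AF9 program genes (−0.01), 16 interferon genes (0.01), 18 NF-kB genes (0.12), 23 lysosome genes (0.02) and 12 metal genes (−0.02) passed. The 11 genes that the study names in MLL-AF9-i139 had a median of −0.07, none passed, and they lay between −0.20 and 0.13. In clones 1, 2 and 3 of MLL-AF9-i139 the median of the same genes was 1.83, 1.74 and 0.26, and the study chose them on those libraries.

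**Figure D4:**
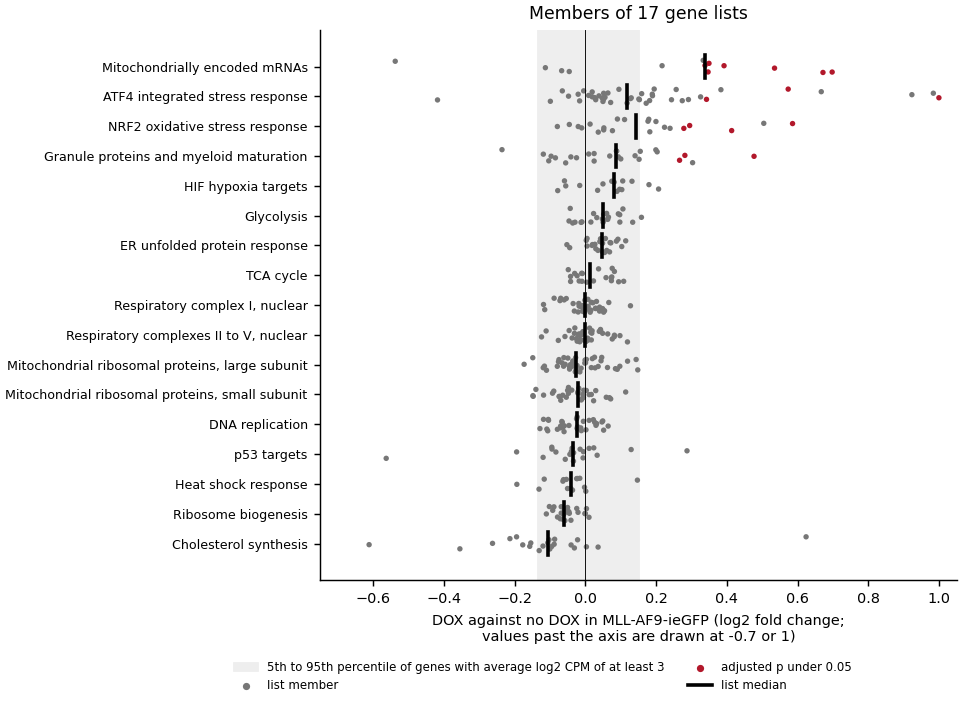
Log2 fold change with DOX in MLL-AF9-ieGFP (x axis) of the tested members of 17 lists (rows). Grey points are members, red points members with an edgeR adjusted p under 0.05, black bars list medians, and the grey band spans the 5th to the 95th percentile of the 8643 genes with an average log2 CPM of at least 3; values beyond the axis are drawn at its limits. The mitochondrial mRNAs (median 0.34), NRF2 (0.14) and ATF4 (0.12) lists lie to the right and cholesterol synthesis (−0.10) to the left. Lists not drawn include NF-kB targets, with a median of 0.12, and immediate early and AP-1 factors, with −0.10.

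Among the called genes the lowest adjusted p and the largest rise were those of Gm18340, a processed pseudogene at chr12:115526351-115526959 on the plus strand (GRCm38), named here after its values were seen. It had 42 counts without and 479 with DOX at 48 h, and 66 without and 374 with DOX at 72 h (3.05 ± 0.19, edgeR adjusted p = 1.38e-10). It had 0 counts in all 6 MLL-AF9-i139 libraries. At a distance of 6568 bases lies Ighv8-10, an immunoglobulin V pseudogene at chr12:115519340-115519782 on the minus strand. It had 53 and 143 counts at 48 h and 44 and 149 at 72 h (1.65 ± 0.21, edgeR adjusted p = 5.02e-05), and 0 or 1 count in the MLL-AF9-i139 libraries.

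The IG V gene Ighv1-64 (chr12:115507545-115508031), had 21 and 25 counts at 48 h and 12 and 27 at 72 h, and 0 or 1 in the MLL-AF9-i139 libraries. The nearby Gm9238 and Gm19331 had between 1 and 9 counts in each of the 10 libraries. Of 147 annotated genes that lie within 1000000 bases on either side of Gm18340, 16 had at least 10 counts over the 4 MLL-AF9-ieGFP libraries and 17 over the 6 MLL-AF9-i139 libraries. The counts of Gm18340 and Ighv8-10 were above 0 in the untreated libraries of this clone as well, at a lower level. With 1 clone, what belongs to the construct and what to the clone cannot be told apart.

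Of the 12 falls, 3 went opposite ways at 48 h and 72 h, and their counts were high where the rRNA counts were. The part of the rRNA counts in them was not tested. Il31ra, a cytokine receptor, had 10 counts without and 21 with DOX at 48 h, and 297 without and 7 with DOX at 72 h (−3.45 ± 0.51, edgeR adjusted p = 0.000492). Gm26561 had 367, 379, 1757 and 378 counts and Gm19951 had 5, 13, 82 and 11 in the order untreated 48 h, DOX 48 h, untreated 72 h and DOX 72 h. The rRNA gene CT010467.1 had 145, 648, 7530 and 147. The same 4 genes were high together in MLL-AF9-i139: in untreated clone 2 they had 450, 3035, 322 and 11963 counts (Il31ra, Gm26561, Gm19951 and CT010467.1), and in untreated clone 3 they had 7, 398, 7 and 234. Without the untreated 72 h library the log2 fold change of Il31ra was 0.74, of Gm26561 0.31 and of Gm19951 1.50.

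In MLL-AF9-i139, where DOX induces miR-139, 2281 genes rose (11.3% of 20269 tested) and 2096 fell (10.3%). These calls come from a contrast between the libraries of the 3 clones within the fit of all 10 libraries. The 4 control libraries therefore entered its gene filter, scaling and variance. The fit of the control held 2 pairs of 1 clone, so the counts of calls are not comparable. Of the 39 genes that rose in MLL-AF9-ieGFP, 12 also rose in MLL-AF9-i139 (30.8%) and 3 fell (7.69%), and of the 12 that fell, 2 fell (16.7%) and 1 rose. The 2 contrasts set different libraries against each other, but the control libraries entered both fits. The 12 were mt-Cytb, Mpo, Il1f9, Ssbp2, Slco3a1, Nqo1, Tspoap1, Angptl4, Pck2, Serpinb9g, Utrn and Ngp. For mt-Cytb the log2 change in clones 1, 2 and 3 was 0.54, 0.28 and 0.60, beside 0.67 in the control. For Nqo1 it was 0.40, 0.19 and 0.66 beside 0.59, and for Pck2 0.71, 0.53 and 0.69 beside 0.48. For Utrn, which links the cytoskeleton to the membrane, it was 0.34, 0.43 and 0.29 beside 0.27. For these 4 genes the difference between the constructs lay between −0.17 ± 0.17 (Pck2) and 0.20 ± 0.11 (mt-Cytb) (edgeR adjusted p = 0.369 to 0.687), which does not show that they responded alike.

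Other genes went separate ways. Slc7a11 was at −1.78, −1.23 and −0.18 in the 3 clones of MLL-AF9-i139, beside 0.57 in the control, a difference between the constructs of 1.64 ± 0.38 that did not pass the test (edgeR adjusted p = 0.147). Clec5a was at 1.86, 1.55 and 0.30 beside −0.48 (difference −1.73 ± 0.41, edgeR adjusted p = 0.147). Of the ATF4 list, 4 members rose and 16 fell in MLL-AF9-i139, with medians of −0.39, −0.44 and −0.02 in the clones. Of the complex I mRNAs, none was called in MLL-AF9-i139, and clone 2 was below 0 for mt-Nd1 to mt-Nd6 other than mt-Nd4l, as the plot of the mitochondrial mRNAs shows. Clone 1 was below 0 for mt-Nd1 (−0.33) and mt-Nd2 (−0.10). It was above 0 for mt-Nd3 (0.03), mt-Nd4 (0.26), mt-Nd5 (0.10) and mt-Nd6 (0.24), and clone 3 was above 0 for all of these. Clone 2 with DOX had 533 mitochondrial rRNA counts, against 2315 without.

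The test of the difference itself, DOX by construct over all 10 libraries with the pair as block, passed 11 of 20269 genes (0.0543%), of which 10 were lower in MLL-AF9-ieGFP and 1 higher. Ssbp2, a co-factor of LIM transcription factors, went from 34.2 to 50.4 scaled CPM at 48 h and from 28.4 to 39.9 at 72 h in the control (0.53 ± 0.07), beside a change of 3.70 ± 0.14 in MLL-AF9-i139 (difference −3.17 ± 0.22, edgeR adjusted p = 0.00539). Il1rn, the interleukin-1 receptor antagonist, was at 0.36 ± 0.15 beside 4.92 ± 0.27, and the carboxylesterase Ces2g at 0.34 ± 0.11 beside 1.84 ± 0.09 (differences −4.56 ± 0.43 and −1.50 ± 0.14, each with an edgeR adjusted p of 0.0268). Tfec, a basic helix-loop-helix factor, was at 0.08 ± 0.06 beside −0.91 ± 0.07 (0.99 ± 0.11, edgeR adjusted p = 0.0317). Hist4h4 and Rspo3, next on the higher side, did not pass (edgeR adjusted p = 0.0827 each). The count rests on the clones of MLL-AF9-i139: without clone 1 or clone 2 no gene passed (2052 and 2093 at an unadjusted p under 0.05), and without clone 3, whose DOX library is from 72 h, 5007 passed.

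**Figure D5:**
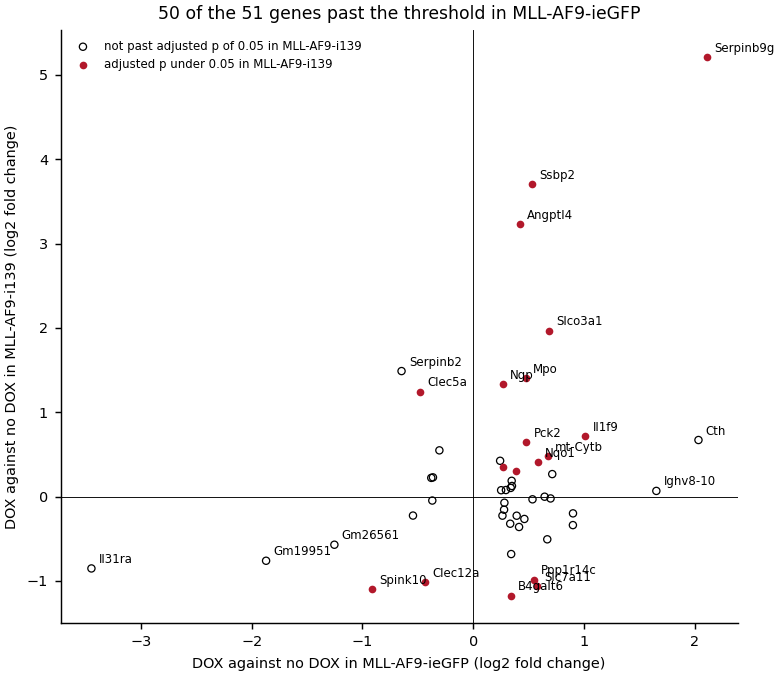
Log2 fold change with DOX in MLL-AF9-ieGFP (x axis) and MLL-AF9-i139 (y axis) for 50 of the 51 genes called in MLL-AF9-ieGFP; Gm18340, at 0 in every MLL-AF9-i139 library, is left out. Red points have an edgeR adjusted p under 0.05 in MLL-AF9-i139 as well, open circles do not. Serpinb9g, Ssbp2, Angptl4 and Slco3a1 had the larger values in MLL-AF9-i139, and Slc7a11, Ppp1r14c and B4galt6 rose in MLL-AF9-ieGFP and fell in MLL-AF9-i139.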

How the data were processed

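Total RNA of the 10 libraries was rRNA-depleted and sequenced (KAPA RNA HyperPrep with RiboErase, NovaSeq). The authors aligned the reads with STAR 2.5.3e and counted them with FeatureCounts 1.6.0 against GENCODE M15 (mouse), per their methods, and deposited raw counts per gene for 52550 genes. The table used here also held 14 columns of other samples, which were not used. A second deposited table held the same counts for the 10 libraries (0 differing values). Gene names and GRCm38 positions came from GENCODE M21, which held 52403 of the gene IDs. Genes with at least 10 counts over the libraries of a fit were tested with edgeR 4.0.16 (TMM scaling, quasi-likelihood test with legacy=FALSE, Benjamini-Hochberg adjustment over all genes tested, threshold 0.05). The comparison held the 4 MLL-AF9-ieGFP libraries with time as a block, so that each DOX library was set against the untreated library of its time, since the labels give 48 h and 72 h in both groups. The deviations of the pairs from their group means correlated at 0.607 over 8643 genes. SEs are those of the fitted log2 fold change. Values called scaled CPM use TMM library sizes, and log2 changes at each time use a prior count of 2. The interaction fit held all 10 libraries with the pair as block. The calls and fitted changes of MLL-AF9-i139 came from the same fit. DESeq2 1.42.0, limma 3.58.1, other scalings and filters, and leaving out each library were tried. The edgeR fit of 4 libraries, and no other fit, was tested on simulated counts, which held no time effect. With 2 libraries against 2, an exact permutation test cannot go below p = 0.333, so none is given.

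The members, the gene lists and the tests were chosen with earlier results of these data known. Named genes were the 12 largest rises and falls past the threshold with an average log2 CPM of at least 1, a gene symbol and the same direction at both times, filled up to 12 with the lowest p at a log2 change of at least 0.5; the mitochondrial mRNAs and rRNAs; members of each list with the lowest p or highest level; 14 fixed stress genes; genes the study names; and the 3 lowest p of the interaction in each direction.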

Additional observations from a re-analysis of the deposited data

Results flagged for a closer look

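Of the genes named here, 4 differed between the constructs in the interaction test over all 10 libraries: Ssbp2 (−3.17), Ces2g (−1.50) and Il1rn (−4.56) had the lower log2 change with DOX in MLL-AF9-ieGFP, and Tfec (0.99) the higher. Of the genes called in the fit of the 4 MLL-AF9-ieGFP libraries, 3 moved in opposite directions at the 2 times, a difference that was not tested, since each time has 1 pair: the log2 change at 72 h was −5.18 for Il31ra, −2.32 for Gm26561 and −2.81 for Gm19951, and at 48 h it was 1.12, 0.27 and 1.26.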

How the results depend on the processing

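The 51 calls in MLL-AF9-ieGFP came to 9 with DESeq2 and the block, 4 with DESeq2 and no block, 0 with no replicate block (329 at an unadjusted p under 0.05), 0 with all 10 libraries with the pair as block (476), 0 with all 10 and no block (348), 123 with the legacy edgeR fit, 85 with limma-voom, 88 with filterByExpr, 114 with at least 10 counts in each library and 16 with no filter on low counts. They stayed within 1.5 times with RLE size factors (46), the robust fit (47), mitochondrial genes left out of library sizes (50) and, added after seeing the data, the same direction required at both times (48). Leaving out 1 library each, with no time block, gave 0 to 61. The 11 interaction calls came to 0 with no replicate block (1911 at an unadjusted p under 0.05), 720 with DESeq2 and the block, 7 with filterByExpr, 3440 without the 72 h pairs, 11 with RLE size factors and 0 to 5007 without 1 clone. The cause of these differences was not tested.

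No called gene changed sign under an alternative that kept all 4 libraries. With 1 library left out and no time block, time in culture was mixed with DOX. The ATF4 median then ranged from −0.040 to 0.21 and the granule median from −0.067 to 0.074. Those of the mitochondrial mRNAs (0.23 to 0.42), NRF2 (0.10 to 0.16) and cholesterol synthesis (−0.14 to −0.08) kept their sign. Changes of sign among called genes came with these ranges: Il31ra −4.55 to 0.74, Gm26561 −2.36 to 0.31, Gm19951 −2.91 to 1.50, Stc2 −0.019 to 0.67, Elane −0.090 to 0.61, Ngp −0.087 to 0.65, Spink10 −1.83 to 0.28, B4galt6 −0.11 to 0.74 and Ppp1r14c −0.013 to 0.93. Fits of 3 libraries leave 1 residual degree of freedom, the lone library of its group being assumed to vary like the others. The smallest called change was 0.24 (Malat1, SE 0.05), and no smaller change was called at this number of libraries.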
